A study of Mus musculus with 3 samples.

Results

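Nephron progenitors of the embryonic kidney form caps around the tips of the ureteric bud, and this cap mesenchyme was represented here by 7 marker genes that act outside its core set of transcription factors Six2, Eya1, Sall and Osr. The genes were Cited1, Meox1, Crym, Traf1, Spock2, Ncam1 and Tmem100. They were chosen as known markers of uncommitted progenitors, with earlier results of these data known. They were read through all probe sets whose platform annotation named one of these symbols and no other gene. This gave 16 of the 45101 probe sets on the array and 7 of the 18193 genes that could be named through such a probe set. The cells came from E15.5 mouse embryos of strain CD-1 (Theiler stage 23) that carried the transgene Tg(Six2-EGFP/cre)1Amc, in which EGFP and cre were driven from Six2 sequences, and they were dissociated with trypsin and isolated by fluorescence-activated cell sorting. The 3 arrays formed a single group, labelled cap mesenchyme, and each held the amplified RNA of a pool of about 5 to 10 kidneys with the sex of the embryos unknown. There was no unsorted kidney, other compartment, other stage or animal without the transgene to compare with. The question answered was therefore whether each marker gave a signal above the background of the arrays, and how far the pools differed.

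Uncommitted progenitors renew themselves next to the ureteric tip, or leave this state, condense and turn into an epithelial vesicle that becomes a nephron. Cited1 is known for its expression in the uncommitted cells and is switched off early in that passage, before Six2. The other members have varied roles: Meox1 is a homeobox transcription factor best known from somites, Crym binds thyroid hormone in the cytosol, Traf1 is an adaptor of tumour necrosis factor receptors, Spock2 is a secreted proteoglycan of the testican family, Ncam1 is an adhesion molecule of condensing mesenchyme, and Tmem100 is a membrane protein known from endothelium and counted among cap mesenchyme markers.

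Cited1 was read by a single probe set, although RefSeq lists 3 start sites for the gene, so its signal does not tell the starts apart. The 250 bases before each start are shown (RefSeq, GRCm38.p6, minus strand, at chrX:102252182-102252431, chrX:102251844-102252093 and chrX:102250777-102251026), with the letters TATAAA in capitals, because this gene marks the uncommitted state and its 3 windows differ in this motif.
Cited1 distal start: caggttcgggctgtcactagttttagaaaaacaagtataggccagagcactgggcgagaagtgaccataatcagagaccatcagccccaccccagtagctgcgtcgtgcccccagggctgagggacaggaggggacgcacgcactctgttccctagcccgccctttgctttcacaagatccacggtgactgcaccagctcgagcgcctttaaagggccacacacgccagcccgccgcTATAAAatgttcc
Cited1 middle start: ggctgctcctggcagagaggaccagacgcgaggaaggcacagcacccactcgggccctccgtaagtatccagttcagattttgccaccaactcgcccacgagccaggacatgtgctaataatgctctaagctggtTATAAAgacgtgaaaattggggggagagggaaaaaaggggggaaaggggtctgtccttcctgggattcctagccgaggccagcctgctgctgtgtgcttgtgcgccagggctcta
Cited1 proximal start: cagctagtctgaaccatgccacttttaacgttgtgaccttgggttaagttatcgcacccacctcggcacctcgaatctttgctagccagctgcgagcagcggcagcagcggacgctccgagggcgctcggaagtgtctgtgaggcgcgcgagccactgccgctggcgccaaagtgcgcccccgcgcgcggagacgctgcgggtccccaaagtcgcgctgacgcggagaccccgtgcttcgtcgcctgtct
The distal window held TATAAA from 13 to 8 bases before the start and the middle window from 115 to 110 bases before it, and the proximal window had no match on either strand. Over all 32851 RefSeq windows of this length, 12.4% held these letters on either strand. Windows were also found for Spock2 and Traf1 (5 windows for 3 members in all), and the motifs CTTTGAA of TCF/LEF factors and TGATAC of sine oculis homeodomains, searched on both strands, were each found in 1 of the 5, against 4.46% and 4.64% of all windows. A match of letters is a description of the window and was not measured here as a bound site.

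Of the 7 marker genes, 6 were above background, where 54.4% of all named genes were. By probe set, 9 of 16 passed, where 41.5% of all 45037 probe sets without controls passed. The background level of each array was the 95th percentile over 150 probe sets of odorant, pheromone and taste receptors, hair proteins and defensins, at signals of 197, 186 and 201 in pools 1, 2 and 3. A probe set passed when the mean of log2(signal + 16) minus the log2 of that level plus 16 was above 0 in limma's one-sided test, with a Benjamini-Hochberg adjusted p under 0.05 over all probe sets. The 9 probe sets that passed lay above the level in each of the 3 pools, at mean distances from 1.10 to 6.82 log2 units. Taking the highest probe set of each gene, the median distance was 2.71 log2 units for the 7 members and 1.20 for all named genes. In sorted cells of this kind, fewer cells with a transcript and less transcript per cell cannot be told apart.

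**Figure D1:**
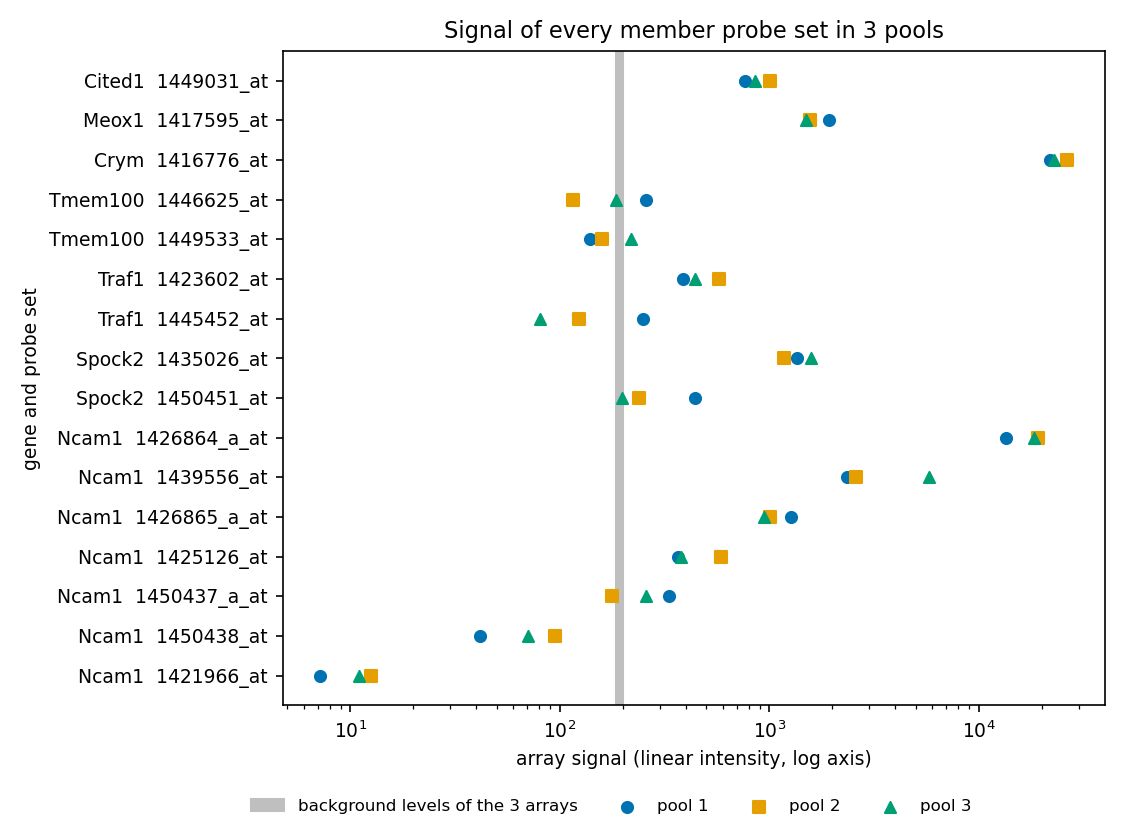
Array signal (linear intensity, log axis) of the 16 member probe sets in pools 1 to 3, with the background levels of the 3 arrays as a grey band. Crym and Ncam1 1426864_a_at lie far to the right of the band in every pool. Each Tmem100 probe set has points on both sides of the band. The 7 Ncam1 probe sets spread over a wide range, from means of 10.3 to 17004.

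**Figure D2:**
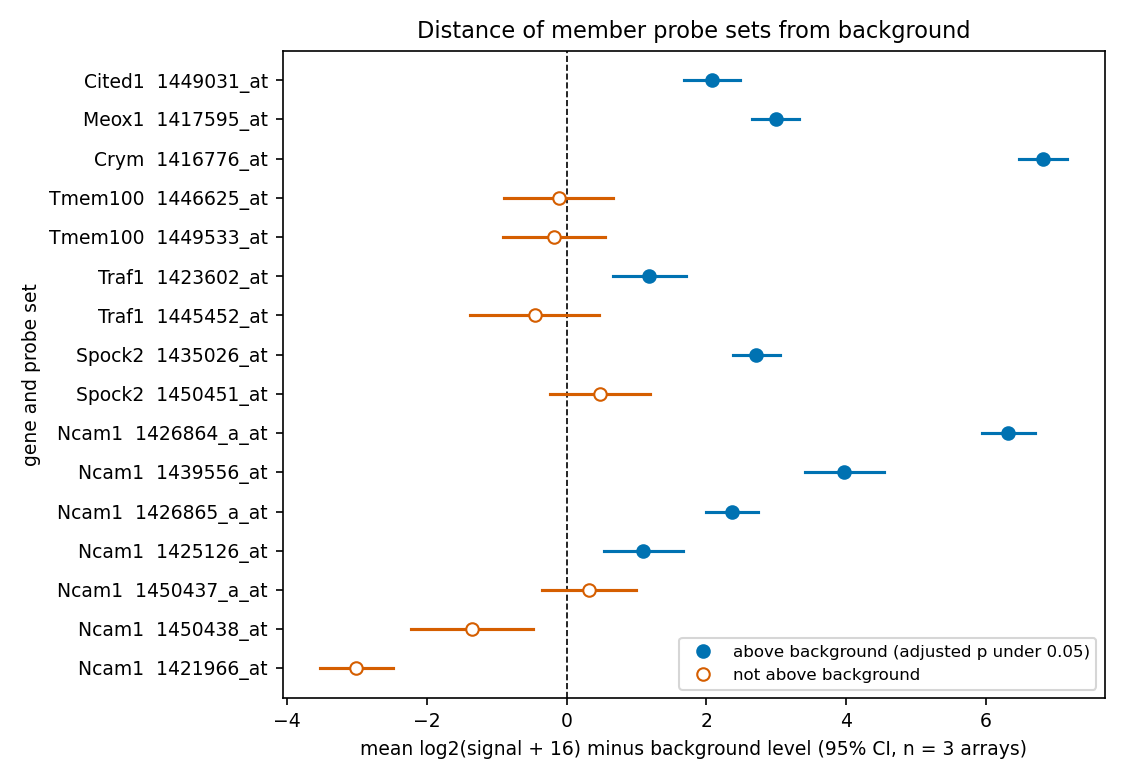
Mean of log2(signal + 16) minus the background level for each member probe set, with its 95% confidence interval from limma (n = 3 arrays) and the background level at 0. Filled points passed the test, and the lowest of them are Ncam1 1425126_at at 1.10 and Traf1 1423602_at at 1.18.

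The transcriptional regulators Cited1 and Meox1 were both detected. Cited1, a coactivator without a DNA-binding domain of its own that works through CBP and p300, had signals of 770.2, 1009 and 853 in pools 1, 2 and 3 (probe set 1449031_at). All 3 values were about 4 to 5 times the background level of their array, and the pools differed by no more than 1.31-fold. The mean lay 2.08 log2 units above background (95% confidence interval 1.68 to 2.47, adjusted p = 1.05e-05, limma). Meox1 had signals of 1929.8, 1574 and 1493 (1417595_at), highest in pool 1 and within 1.29-fold. Its mean lay 2.99 log2 units above background (95% confidence interval 2.66 to 3.32, adjusted p = 4.1e-07, limma).

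Crym and Traf1 encode cytosolic proteins. Crym, which binds triiodothyronine and also has ketimine reductase activity, had signals of 22012, 26500.3 and 22957 (1416776_at). Its ratio of highest to lowest pool, 1.20, was the smallest among the 9 probe sets that passed. The distance from background was 6.82 log2 units (95% confidence interval 6.48 to 7.16, adjusted p = 1.6e-08, limma). Traf1, which joins TRAF2 at activated receptors and modulates NF-kB signalling, was near background and its probe sets differed. The probe set 1423602_at read 386, 576 and 442, above the level in every pool, with a distance of 1.18 log2 units (95% confidence interval 0.67 to 1.70, adjusted p = 0.0015, limma). The other, 1445452_at, read 251, 124 and 80.4, above the level in pool 1 alone, and did not pass. With the level raised to the 99th percentile, Traf1 was the member gene that lost its call (0.04 log2 units, 95% confidence interval -0.52 to 0.61).

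At the cell surface, Ncam1 was detected by 4 of its 7 probe sets. It encodes the neural cell adhesion molecule, an immunoglobulin-domain protein that progenitors carry as they condense and whose adhesion is lowered by polysialic acid. The probe set 1426864_a_at read 13427, 19243 and 18341, lowest in pool 1, at 6.32 log2 units above background (95% confidence interval 5.95 to 6.69, adjusted p = 1.7e-08, limma). The probe set 1426865_a_at, designed from the same cDNA sequence, read 1277, 1009 and 949, with the opposite order of pools 1 and 2, at 2.37 log2 units (95% confidence interval 1.99 to 2.74, adjusted p = 3.3e-06). The suffix _a_at marks probe sets that can match several transcripts of one gene. The probe set 1439556_at read 2363, 2601 and 5775, so pool 3 stood 2.44-fold above pool 1 while pools 1 and 2 were close. It passed at 3.97 log2 units (95% confidence interval 3.41 to 4.54, adjusted p = 1.8e-06). The fourth, 1425126_at, read 368, 586 and 379 and passed at 1.10 log2 units (adjusted p = 0.0033, limma), but not without pool 2 (adjusted p = 0.054).

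The 3 Ncam1 probe sets designed from the RefSeq transcript NM_010875 did not pass. The probe set 1450437_a_at read 331, 177 and 257, on both sides of the level. The probe set 1450438_at read 41.6, 94.9 and 70.4, and 1421966_at read 7.17, 12.5 and 11.1, and both lay below the level in every pool. Their distances were 0.32, -1.36 and -3.01 log2 units. The same gene thus gave mean signals of 17004 and of 10.3 on the same arrays, and since probe sets differ in affinity these do not rank transcripts. Control probe sets along Gapdh gave 3' over 5' signal ratios of 20.5, 33.1 and 16.9 in pools 1, 2 and 3, and those along Actb gave 3.54, 9.72 and 9.08, after amplification in 2 rounds. Where the Ncam1 probe sets lie on the transcripts was not analysed here, and the part of this 3' weighting in their differences was not tested.

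Spock2 was detected by 1 of 2 probe sets. Spock2 encodes testican-2, an extracellular matrix proteoglycan whose relatives bind or inhibit proteases. The probe set 1435026_at read 1356, 1178 and 1583, all more than 6 times the level, and its mean was 2.71 log2 units above background (95% confidence interval 2.38 to 3.05, adjusted p = 7.4e-07, limma). The probe set 1450451_at read 443, 238 and 199, highest in pool 1 and just under the level in pool 3. Its distance of 0.48 log2 units did not pass (95% confidence interval -0.24 to 1.19, adjusted p = 0.18), and it passed with the level at the 90th percentile (adjusted p = 0.049).

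Tmem100 was not detected above background by either probe set. The probe set 1446625_at read 258, 116 and 186, above the level in pool 1 alone, at -0.12 log2 units (95% confidence interval -0.89 to 0.66). The probe set 1449533_at read 140.0, 160 and 219.9, above the level in pool 3 alone, at -0.18 log2 units (95% confidence interval -0.91 to 0.55). The pools that were highest differed between the probe sets. The first interval reaches 0.66 log2 units above the level, so a weak signal above it remains possible. A transcript can also lie under a level set at the 95th percentile of background, and absence is not shown. Where these probe sets lie on the transcript was not analysed here. Of all genes with 2 single-gene probe sets, as Tmem100, Traf1 and Spock2 have, 64.3% were above background, and of those with 1, as Cited1, Meox1 and Crym have, 37.1% were. Of the 97 genes with 7 probe sets, as Ncam1 has, 95.9% were. Probe sets of one gene fell on both sides of the threshold for 3 members, Traf1, Spock2 and Ncam1, and for 64.4% of all genes above background with several probe sets.

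The spread of the detected marker probe sets between pools was near that of all detected probe sets. Of the 9 that passed, 1 (Ncam1 1439556_at) had a highest pool at least 2-fold above the lowest, where 13.3% of all probe sets above background did. Their median coefficient of variation was 16.2%, and that of all probe sets above background was 17.9%. Of the 7 that did not pass, 4 differed by at least 2-fold, where 66.5% of all such probe sets did, and their median coefficient of variation was 38.1%, beside 49.3% for all such probe sets. No pool was uniformly high for the markers: the highest value fell in pool 1 for 2, in pool 2 for 5 and in pool 3 for 2 of the 9 detected probe sets. Six2 itself, whose sequences drove the EGFP of the transgene, read 8734, 5727 and 9255 and was lowest in pool 2. Cited1, Crym, Traf1 1423602_at, Ncam1 1426864_a_at and Ncam1 1425126_at were highest in pool 2. Spock2 1435026_at had the same order of pools as Six2. Ncam1 1439556_at was also highest in pool 3, and Meox1 and Ncam1 1426865_a_at were highest in pool 1. Each pool had a single array, so differences between pools have no test.

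**Figure D3:**
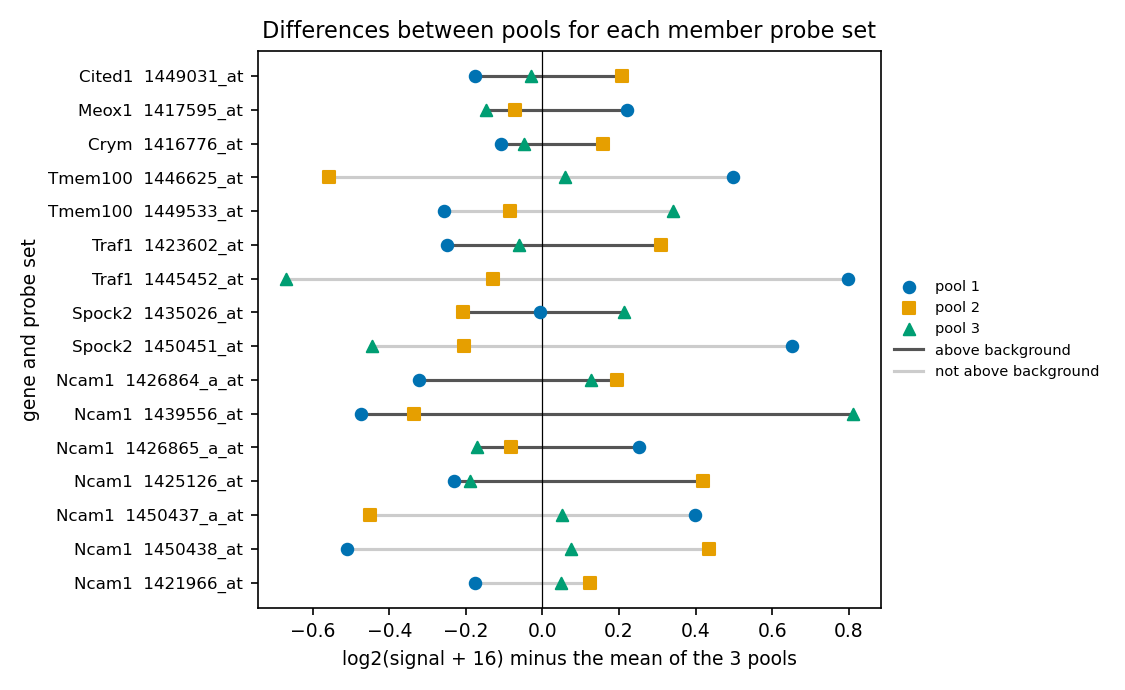
Deviation of log2(signal + 16) from the 3-pool mean for each member probe set, with 1 symbol per pool and a line over the range, dark where the probe set was above background. Crym has the shortest line among the detected probe sets, and Ncam1 1439556_at the longest, with pool 3 alone on the high side.

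Genes whose highest probe set followed the members most closely over the 3 pools were found by the Euclidean distance of log2 deviations from the 3-pool mean. The nearest were Dph5 and Tapt1 for Cited1, Frs3 and Arhgap9 for Meox1, and Bach2 and Dlst for Crym. They were Oga and Dock10 for Traf1, Arfgap2 and Tpgs2 for Spock2, and Fam221a and Mrpl47 for Ncam1. Their distances were at most 0.012 log2 units, but with 3 arrays many genes lie close: within 0.1 log2 units there were 389 of 9890 genes for Cited1, 495 for Crym and 188 for Traf1.

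Other genes of uncommitted progenitors were detected throughout, and so were most genes of the next step. Of 16 measured progenitor genes outside the 7 members, 16 were above background, and 54.4% of all named genes were. Their median distance was 3.48 log2 units, and that of all named genes was 1.20. The list includes Six2 and was chosen with earlier results of these data known, so this count gives no independent support. Among them Uncx, a homeobox gene, read 6688, 6466 and 5536, and Fgf20, a ligand that keeps progenitors in their state, read 711, 809.98 and 1093. Dpf3 passed with 360, 405 and 288 but not without pool 2, and Osr1, Fgf9 and Dpf3 did not pass at the 99th percentile of background, while Wt1 had no probe set left once those named _s_at or _x_at, which can match several genes, were left out. Of 11 genes that come on as progenitors commit, 10 passed, including Wnt4, the signal that starts the transition to epithelium, at 6693, 5061 and 5138, Pax8 at 1539.5, 1759.9 and 2579, and Lhx1, a homeobox gene of vesicles, at 576, 675 and 758. Wnt4 passed on 2 of 2 probe sets, and Pax8 and Lhx1 on 1 of 2 each. Fgf8 did not pass, at 60.7, 10.8 and 9.71. Wnt4, Pax8 and Lhx1 were thus read in the same pools as Cited1, and arrays of pooled cells do not tell whether single cells held both.

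Around Cited1, 4 of 7 genes (57.1%) were above background, near the 54.4% of all named genes that were. Its relative Cited2 read 43062, 63307 and 39549, highest in pool 2 as Cited1 was, while Cited4 read 12.8, 10.2 and 66.1 and did not pass. The coactivators that CITED proteins bind were present: Crebbp, which encodes CBP, read 15169, 15891 and 13128, and Ep300 read 541, 538 and 1064, with pool 3 high. Smad4, a signal transducer with which Cited1 interacts, read 32779, 40259.9 and 32067. Neither Tfap2a nor Tfap2b, which encode partners in other tissues, passed, with mean signals of 153 and 89.4.

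Around Meox1, 1 of 5 genes (20%) was above background, where 54.4% of all named genes were. Its paralogue Meox2 passed on both of its probe sets and read 3046, 2485 and 2724, highest in pool 1 like Meox1, at 3.71 log2 units above background (95% confidence interval 3.42 to 4.00, adjusted p = 5.7e-08, limma). These values came from a probe set named _s_at, which can match several genes. Meox2 also passed when such probe sets were left out. The somite genes Pax1, Pax3, Nkx3-2 and Tcf15 did not pass, with mean signals of 39.9, 63.8, 19.97 and 202. Of 8 muscle and somite markers, 1 passed, the intermediate filament gene Des (959 ± 175, SD, n = 3). The myogenic factor genes Myf5 and Myf6 had mean signals of 13.7 and 9.98. The muscle signals, most of them from Des, summed to 1211, 1388 and 1768 in pools 1 to 3, and the part of muscle or somite cells in the Meox1 signal was not tested.

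Around Crym, 5 of 9 measured thyroid hormone genes (55.6%) passed, near the 54.4% of all named genes that did. The receptor gene Thra read 1934, 1306 and 1480, whereas Thrb read 166, 242 and 137 and did not pass. Among the partner receptors Rxrb (5499 ± 907) and Rxra (944 ± 82.0) passed and Rxrg (61.2 ± 34.7, SD, n = 3 each) did not. The transporter gene Slc16a10 read 324, 621 and 439 and passed, but not without pool 2 or at the 99th percentile of background. The deiodinase genes Dio2, which makes active hormone, and Dio1 did not pass, with mean signals of 231 and 6.37. Dio3 had no probe set that named it alone and was not analysed here.

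Around Traf1, 12 of 15 measured genes of the TRAF family and of TNF receptor signalling (80%) were above background. Of all named genes, 54.4% were. Traf2, the main partner of Traf1, read 671, 702 and 981, and Traf4, Traf5, Traf6 and Traf7 also passed, with mean signals of 1237, 1061, 1187 and 2953. The receptor gene Tnfrsf1a passed (2576 ± 156) and Tnfrsf1b did not (136 ± 32.1, SD, n = 3 each). Rela (5168 ± 512) and the NF-kB inhibitor gene Nfkbia (18188 ± 4553) passed, and Relb (172 ± 65.7) and Nfkb2 (189 ± 44.1, SD, n = 3 each) did not. Traf1 is prominent in leukocytes. Of 9 leukocyte markers 1 passed, Laptm5 (462 ± 89.5, SD, n = 3), which did not at the 99th percentile of background or without _s_at and _x_at probe sets, and the complement genes C1qa and C1qc had mean signals of 9.82 and 4.96. Cd68 read 196, 233 and 461, highest in pool 3, and passed only with the level at the 90th percentile. The leukocyte signals, most of them from Laptm5 and Cd68, summed to 937, 974 and 1304 in pools 1 to 3, and the part of leukocytes in the Traf1 signal was not tested.

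Around Spock2, 8 of 11 measured genes (72.7%) passed, where 54.4% of all named genes did. Its relative Spock1 read 313, 609 and 949.8, lowest in pool 1, and passed at 1.47 log2 units (adjusted p = 0.0024, limma) but not at the 99th percentile of background, and Spock3 did not pass (77.7 ± 10.8). The membrane-type metalloprotease genes Mmp14 (1359 ± 678) and Mmp16 (1844 ± 228), the gelatinase gene Mmp2 (6719 ± 348) and the inhibitor gene Timp2 (14362 ± 1917) passed (SD, n = 3 each). Mmp14 read 2124, 829.7 and 1125, with pool 1 more than 2-fold above pool 2. The related matrix genes Sparc (8110 ± 1866), Fstl1 (21814 ± 2046) and Smoc1 (437 ± 131) also passed, Smoc1 not at the 99th percentile of background, and Sparcl1 (61.8 ± 53.7) and Smoc2 (185 ± 63.6, SD, n = 3 each) did not.

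Around Ncam1, 6 of 10 genes (60%) passed, near the 54.4% of all named genes that did. Those that passed included genes of the enzymes that modify NCAM. The polysialyltransferase genes St8sia2 and St8sia4 read 2574, 3029.8 and 4984, and 2317, 2919 and 2069. St8sia2 was thus highest in pool 3 and St8sia4 lowest there. The 4 detected Ncam1 probe sets did not share 1 order of pools. Ncam1 1439556_at was highest in pool 3, 1426864_a_at and 1425126_at in pool 2, and 1426865_a_at in pool 1. Of the parts of the GDNF receptor, Gfra1, whose product also pairs with NCAM, read 14764, 18653 and 15913, whereas Ret read 131, 136 and 150.2 and did not pass. Fgfr1 (5814 ± 628) and Fyn (1994 ± 69.1), both linked to NCAM signalling, passed, and so did Nrcam (514 ± 151, SD, n = 3 each), though not at the 99th percentile of background. Ncam2, Chl1 and L1cam did not pass, with mean signals of 64.2, 52.2 and 289, though L1cam passed under 2 of 11 alternatives. Ncam1 and Crym are also neural genes. Of 8 measured neural markers 3 passed, Elavl4 (3581 ± 221), Nefl (952 ± 355) and Nefm (331 ± 38.8), the last not without pool 2 or pool 3 or at the 99th percentile of background, while Tubb3 and Stmn2 had mean signals of 26.5 and 33.3. The neural signals, most of them from Elavl4, summed to 5429.5, 4742 and 6026 in pools 1 to 3, and the part of neural cells in the Ncam1 and Crym signals was not tested.

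Around Tmem100, 6 of 10 genes of the BMP9/BMP10 and ALK1 pathway (60%) passed, near the 54.4% of all named genes that did. The receptor gene Acvrl1 and the ligand genes Gdf2 and Bmp10 did not pass. Bmpr2 (18968 ± 3293), Smad1 (12504 ± 160.0), Smad5 (13315 ± 352) and the target genes Id1 (6807 ± 950) and Id3 (10396 ± 2462), all shared with other BMP signals, were above background, as was the coreceptor gene Eng (424 ± 66.5, SD, n = 3 each), though not at the 99th percentile. Acvrl1, which encodes the receptor ALK1, read 11.8, 62.1 and 76.7, and Bmp10 read 34.4, 49.9 and 33.3. Gdf2, which encodes BMP9, read 280.1, 246 and 324 (adjusted p = 0.095, limma), and passed under 3 of 11 alternatives. Of 15 endothelial markers 2 passed, Ramp2 (6867 ± 1163) and Egfl7 (591 ± 45.9, SD, n = 3 each), the second not at the 99th percentile of background, and Tie1 and Tek had mean signals of 3.82 and 32.4. Esam read 424, 249 and 267 and did not pass (adjusted p = 0.064, limma), but passed under 2 of 11 alternatives. The endothelial signals, most of them from Ramp2, summed to 7455, 8945 and 9838 in pools 1 to 3, and the part of endothelial cells in the Tmem100 signals was not tested.

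**Figure D4:**
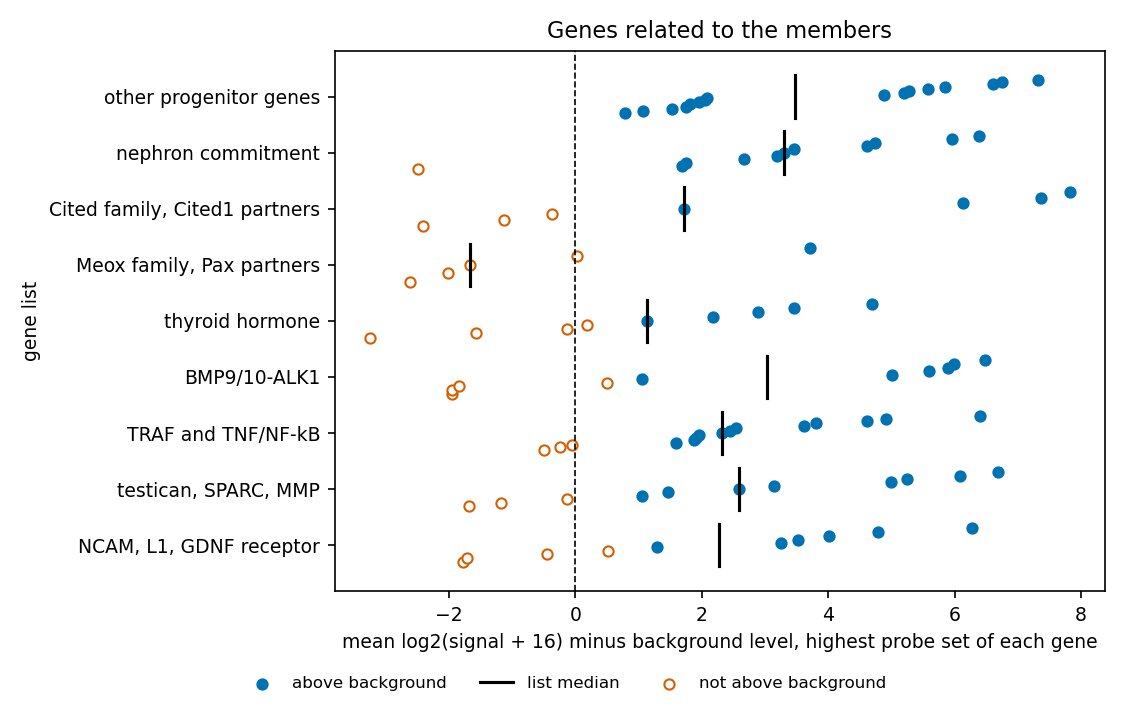
Mean of log2(signal + 16) minus the background level for the highest probe set of each gene in 9 lists related to the members, with list medians as black bars and the background level at 0. All 16 other progenitor genes lie to the right of 0, and 1 of 5 genes in the Meox list is filled.

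Other compartments of the kidney were read by their markers. Of 10 stromal markers 9 were above background, where 54.4% of all named genes were. The stromal signals summed to 30635, 24468 and 24146 in pools 1 to 3. Most of the excess in pool 1 came from Aldh1a2, which read 15849, 9206 and 10478. The median deviation of the 10 markers from their 3-pool means was 0.081, 0.075 and -0.24 log2 units in pools 1 to 3. By this measure pools 1 and 2 were close and pool 3 was lowest, and the order of pools was not tested. Foxd1, the transcription factor gene of cortical stroma, was at 7565 ± 322, and Tbx18 (65.95 ± 67.4, SD, n = 3 each) did not pass. Dcn and Lum lost their calls once pool 2 was left out, and also at the 99th percentile. Of 10 ureteric markers 3 passed (Wnt11, Krt8 and Krt18), all lost at the 99th percentile of background, and Gata3 had a mean signal of 4.66. Krt18 also lost its call whichever pool was left out, and Krt8 without pool 2 or pool 3. Of 8 erythroid markers 0 passed in limma, and 0 did at an unadjusted p under 0.05, though Hba-a2 passed without pool 1. The stromal genes were read in the same pools as the 7 markers, and the part of stromal cells in the signals of the markers was not tested.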

How the data were processed

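RNA of 3 sorted cell pools was read on 1 array each. The deposited values are linear intensity signals, 1 per probe set, which the authors made with GCOS, per the submitters' processing notes; its version and settings are not given in the sources used here. As tested on the values, the mean of each array was 1500 once 2% of values were trimmed from both ends. Pools 1 to 3 follow the replicate numbers of the titles. Whether the pools came from separate litters is not labelled, so p-values measure the spread between these samples. The number of arrays limits the precision.

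From the deposited intensity signals, log2(signal + 16) minus the background level was fitted for 45037 probe sets with limma 3.58.1 in R 4.3.3 (intercept only, eBayes with an intensity trend, one-sided p, Benjamini-Hochberg). Confidence intervals are two-sided and treat the level as fixed. Adding 16 understates differences of weak signals. Background was read from 44 probe sets of olfactory receptors, 43 of keratin-associated proteins, 36 of vomeronasal receptors, 24 of defensins and 3 of bitter taste receptors, of which 2 passed. A gene counted as above background when at least 1 probe set naming it alone passed, and values of a gene with several are those of the one highest on average. Several related genes passed on only some of their probe sets. Among them were Pax8, Lhx1, Cited2 and Spock1 (1 of 2 each), Mmp14 (1 of 3), and Slc16a10 and Nrcam (1 of 4 each). Symbols came from the platform annotation, and all 7 members matched RefSeq by Entrez identifier. The genome build of the array was not given. Members and lists were chosen with earlier results of these data known. All members, genes of 9 related lists, up to 3 top and 2 bottom markers per cell type list by moderated statistic, and the 2 nearest genes per detected member could be named. The stromal marker Lum was named outside this rule. List genes that no such probe set named were not analysed here. The fit was tested on simulated data first. Tables were made with pandas 2.3.3 in Python 3.11.15, and plots with matplotlib 3.10.9.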

Additional observations from a re-analysis of the deposited data

How the results depend on the processing

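In all 11 alternatives between 5 and 6 member genes were above background (Traf1 was lost at the 99th percentile), and between 7 and 10 member probe sets. Cited1, Meox1, Crym, Spock2 1435026_at and 3 Ncam1 probe sets passed in every setting that retained them. With 1 pool left out, 8 to 9 member probe sets and 6 member genes passed. Direction turned for probe sets near the background level. At its 90th percentile Tmem100 1446625_at and 1449533_at lay at 0.20 and 0.14 log2 units (adjusted p = 0.57 and 0.64, limma), and with 1 pool left out the first ranged from -0.36 to 0.13 (adjusted p = 0.77 without pool 2). At the 99th percentile Ncam1 1425126_at, Ncam1 1450437_a_at and Spock2 1450451_at lay at -0.041, -0.82 and -0.66 log2 units. Of 94 measured related genes 68 were above background, and 59 to 70 over the alternatives. Of 18193 named genes 9891 were in the main setting, and 8369 to 10303 over the alternatives. Of 10 stromal markers 5 passed at the 99th percentile. At the 90th and 99th percentiles the level itself moved, by construction, and for pool 2 the cause was not tested. No paired analysis was possible because the samples form a single group. With 3 arrays, signals near the level could not be resolved.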
